A study of Homo sapiens with 12 samples.

Results

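The 10 genes described here mark how epithelial a cell is, and they were followed through loss of the transcription factor subunit TAF5 and its replacement by either of 2 isoforms. They were taken by name from the deposited gene table: the keratins KRT8, KRT18 and KRT19, the adhesion molecule EPCAM, the claudins CLDN3, CLDN4 and CLDN7, the splicing regulator ESRP1 and the repressors ZEB1 and ZEB2. All 10 were among the 32010 genes of the table, and all 10 were among the 19424 that passed the filter on low counts. Cadherins were left out. The cells were HEK293 Flp-In, a human embryonic kidney line with 1 fixed site that accepts a transgene, and polyadenylated RNA was sequenced from 12 libraries in 4 groups of 3. The first group, siNT, received a non-targeting siRNA. The second, siTAF5, received a single siRNA against TAF5. The third, FL, received the TAF5 siRNA and then expressed siRNA-resistant full-length TAF5. The fourth, ΔE8, received the TAF5 siRNA and then expressed siRNA-resistant TAF5 without its exon 8. Doxycycline was added 24 h after transfection for 48 h, and the labels give siRNA with doxycycline as the treatment of all 4 groups. They do not state in which cells the siNT and siTAF5 libraries were made. They give FL and ΔE8 different doxycycline doses, so dose and isoform cannot be told apart. Nothing in the labels says that the libraries of a group came from separate cultures, so p-values measure the spread between these libraries, which may be technical.

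Keratins 8 and 18 pair into the intermediate filaments of simple epithelia, and keratin 19 takes the place of keratin 18 in some of them. EPCAM is an adhesion protein of epithelial membranes that binds claudins, and claudins form the sealing strands and pores of tight junctions. ESRP1 steers splicing towards epithelial isoforms. ZEB1 and ZEB2 are zinc finger repressors known for binding E-box sequences in front of epithelial genes during the switch to a mesenchymal state. TAF5 is a scaffold subunit of TFIID, which recognises core promoters and recruits RNA polymerase II.

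Library totals were 41.8 to 62.5 M estimated counts. Levels are given as CPM, estimated counts scaled to a common library size, and changes as log2 fold changes with their standard error (SE) from edgeR's quasi-likelihood test across all genes. A change was called at an adjusted p under 0.05 without a minimum fold. TAF5 itself averaged 39.96 ± 0.698 CPM (SD, n = 3) with siNT. After siTAF5 it averaged 6.72 ± 0.612, with full-length TAF5 105 ± 2.44 and with the shorter isoform 88.0 ± 0.757, so both rescued groups held more TAF5 RNA than siNT and FL held more than ΔE8. Of 6 kidney lineage markers 5 passed the filter and PAX8 was near 0. Fibroblast markers were thin, with COL1A2, DCN and THY1 near 0, and 3 of 8 tested. Their summed level was 19.4 to 20 CPM in siNT, 13.2 to 13.8 after siTAF5, 10.7 to 12.2 in FL and 10.7 to 10.9 for ΔE8, and most of it was COL1A1. The squamous keratins KRT5, KRT14 and KRT6A were near 0 (KRT10, of the same list, had 17.6, 17.2, 22.4 and 20.2 CPM in the means of siNT, siTAF5, FL and ΔE8), as were PTPRC, CD3E, LYZ and HBB of blood cells. The hemoglobin gene HBA1 had 9.76, 6.37, 9.51 and 6.89 CPM in the means of siNT, siTAF5, FL and ΔE8, and thus was high and low in the same groups as EPCAM below. The part of these markers in the results was not tested. In bulk RNA, fewer cells that express a gene and less of its RNA per cell cannot be told apart.

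Per kilobase of transcript, the siNT libraries put the 10 genes in 3 tiers. KRT8 stood highest at 139 ± 2.21 CPM per kb (SD, n = 3), ahead of KRT18 at 74.3 ± 0.292, KRT19 at 55.5 ± 1.64 and EPCAM at 48.9 ± 0.943. The repressors formed the middle tier, ZEB1 with 12.6 ± 0.119 CPM per kb and ZEB2 with 7.97 ± 0.24. CLDN7 followed at 1.22 ± 0.0223, CLDN4 at 0.49 ± 0.0692, CLDN3 at 0.301 ± 0.0746 and ESRP1 at 0.219 ± 0.0204. The cells thus carried simple keratins and EPCAM together with both ZEB repressors, and little RNA of the claudins and of ESRP1. Transcript lengths were medians over annotated coding transcripts, so these levels shift with the isoform that is expressed.

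**Figure D1:**
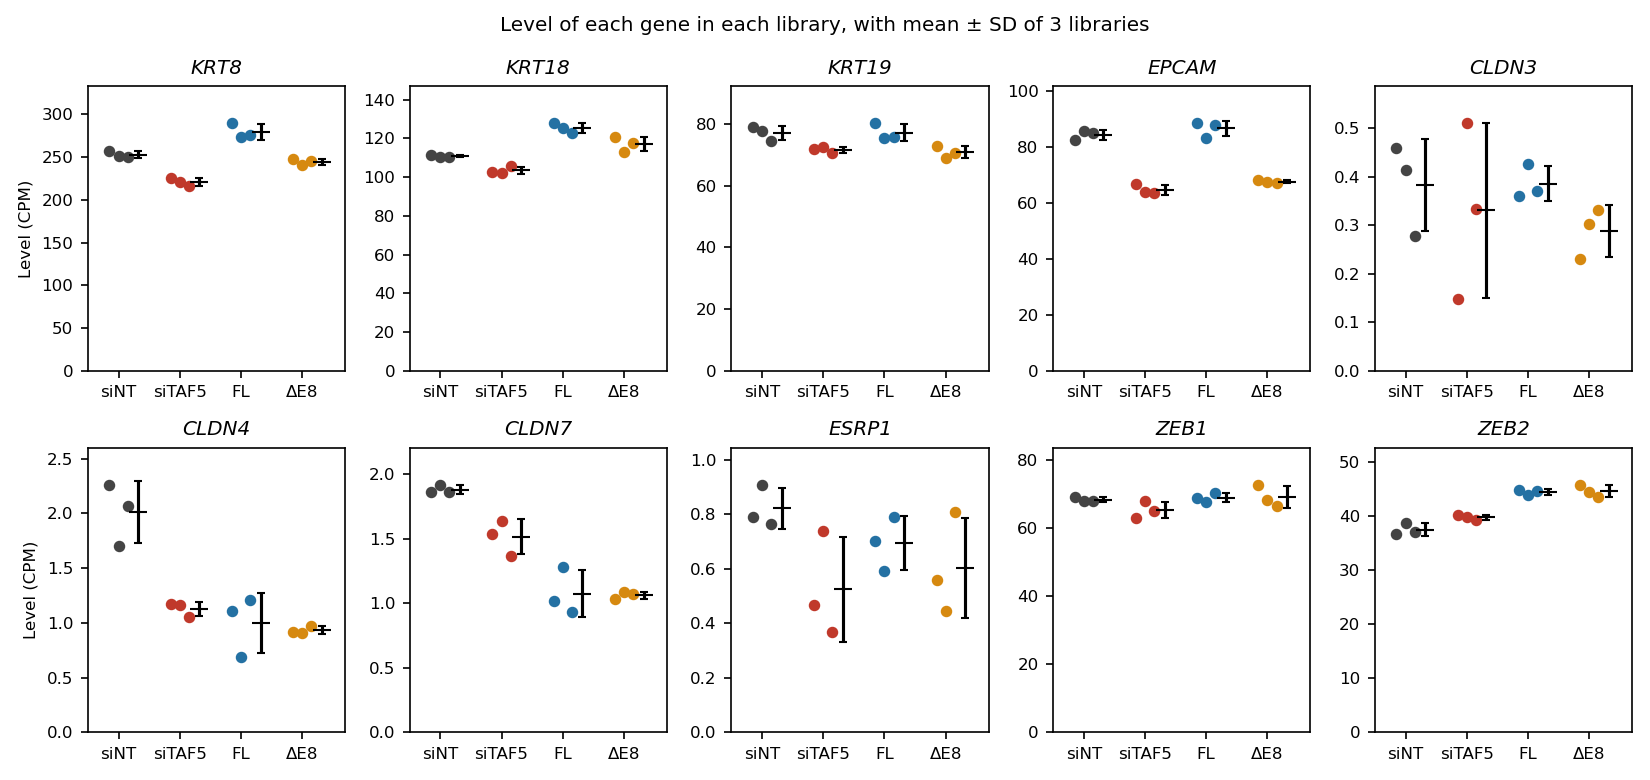
Level of each of the 10 genes in CPM (vertical axis, from 0) in the 12 libraries of the siNT, siTAF5, FL and ΔE8 groups; points are libraries, and the bar beside them is the mean with 1 SD over 3 libraries. EPCAM sits between 63.8 and 68.4 CPM in the siTAF5 and ΔE8 libraries and between 82.5 and 88.6 in the siNT and FL libraries.

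EPCAM separated the 4 groups into a high and a low pair. The siNT libraries held 82.5, 85.7 and 84.9 CPM, the siTAF5 libraries 66.9, 63.9 and 63.8, the FL libraries 88.6, 83.4 and 88.1, and the ΔE8 libraries 68.4, 67.6 and 67.0. Every siTAF5 and ΔE8 library lay below every siNT and FL library, and the FL and siNT ranges overlapped. With TAF5 depleted, EPCAM fell by 0.38 on the log2 scale (SE 0.03, 1.3-fold, edgeR adjusted p = 2.52e-09). In FL it stood 0.42 above the siTAF5 level (SE 0.03, 1.34-fold, edgeR adjusted p = 6.29e-10), and the FL level differed from siNT by 0.04 with a 95% interval of -0.02 to 0.10. In ΔE8 it stood 0.06 above siTAF5 (SE 0.031, edgeR adjusted p = 0.108), a difference that passed the test when siTAF5 replicate 1 was left out (0.10, edgeR adjusted p = 0.0294). Compared directly, the ΔE8 level of EPCAM was 1.28-fold under that of FL (log2 fold change -0.36, SE 0.03, edgeR adjusted p = 1.56e-08). The gene lies at chr2:47345158-47387601 on the plus strand of hg38.

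All 3 keratins also fell after depletion, with smaller estimates than EPCAM. KRT8 read 257, 251 and 249.9 CPM in siNT, 226, 221 and 216 in siTAF5. In FL it read 289.5, 273 and 276 and in ΔE8 247, 241 and 246. Its 4 groups did not overlap, with FL highest, then siNT, ΔE8 and siTAF5. KRT8 fell by 0.19 after depletion (SE 0.026, edgeR adjusted p = 3.44e-06) and was 0.34 higher in FL than in siTAF5 (SE 0.026, edgeR adjusted p = 1.81e-09). In ΔE8 it was 0.15 above siTAF5 (edgeR adjusted p = 0.00015) and 0.19 below FL (log2 fold change -0.19, edgeR adjusted p = 7.8e-06). Against siNT, KRT8 in FL was 0.15 higher (edgeR adjusted p = 8.32e-05), while ΔE8 stood at -0.05 (edgeR adjusted p = 0.122), a difference called with upper-quartile scaling (-0.09, edgeR adjusted p = 0.00528).

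KRT18, the filament partner of KRT8, had its lowest levels in siTAF5 too. The siNT libraries gave 111, 111 and 110.5 CPM, the siTAF5 libraries 103, 102 and 106, the FL libraries 128, 125 and 123, and the ΔE8 libraries 120.5, 113 and 117. None of the 4 groups overlapped, and here both rescued groups were above siNT. KRT18 fell by 0.10 after depletion (SE 0.027, 1.07-fold, edgeR adjusted p = 0.00603), rose by 0.27 from siTAF5 to FL (SE 0.028, edgeR adjusted p = 7.28e-08) and by 0.18 from siTAF5 to ΔE8 (SE 0.027, edgeR adjusted p = 3.75e-05). ΔE8 was below FL by a log2 fold change of -0.10 (edgeR adjusted p = 0.00745), which missed the threshold without ΔE8 replicate 2 (-0.07, edgeR adjusted p = 0.0818). The excess of ΔE8 over siNT (0.08, edgeR adjusted p = 0.0165) was lost in 4 of 21 alternative settings, among them upper-quartile scaling (0.04, edgeR adjusted p = 0.243) and the fits without ΔE8 replicate 1 (0.05, edgeR adjusted p = 0.126) or replicate 3 (0.07, edgeR adjusted p = 0.0601).

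KRT18 and KRT8 also shifted against each other. Their ratio within a library, KRT18 over KRT8, averaged 0.438 ± 0.0051 in siNT (SD, n = 3), 0.469 ± 0.018 in siTAF5, 0.448 ± 0.0089 in FL and 0.478 ± 0.009 in ΔE8. The siTAF5 and ΔE8 ranges lay above the siNT range (0.456 to 0.490 and 0.470 to 0.488 against 0.433 to 0.442), and the FL range, 0.442 to 0.458, began where siNT ended, overlapped siTAF5 and stayed below ΔE8. With 3 libraries a group, an exact two-sided permutation test of such a ratio cannot go below p = 0.1. The ratio carries a limit of the locus: KRT8 (chr12:52897187-52949954, minus strand) and KRT18 (chr12:52948871-52952906, plus strand) overlap on opposite strands by 1084 bases in the deposited table. Whether the counting used strand is not stated in these sources, so reads from the shared stretch cannot be assigned. Processed pseudogenes share their sequence as well, with 24 rows for KRT8 and 25 for KRT18, which held 1.3% to 2.1% and 1.1% to 1.9% of the estimated counts of parent and pseudogenes together. How many reads of either gene were assigned to a wrong row was not measured.

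KRT19 (chr17:41523617-41528308, minus strand) had the narrowest range of the 3 keratins. It was read at 79.1, 77.6 and 74.6 CPM in siNT, 71.8, 72.5 and 70.7 in siTAF5. The FL libraries had 80.3, 75.4 and 75.7 and the ΔE8 libraries 73.0, 68.9 and 70.8. As for EPCAM, siNT and FL formed a high pair and siTAF5 and ΔE8 a low pair, with no overlap between the pairs. KRT19 fell by 0.10 after depletion (SE 0.032, edgeR adjusted p = 0.00969), was 0.11 higher in FL than in siTAF5 (SE 0.032, edgeR adjusted p = 0.00905) and was lower in ΔE8 than in FL (log2 fold change -0.12, SE 0.032, edgeR adjusted p = 0.00511). ΔE8 and siTAF5 differed by -0.02 with a 95% interval of -0.08 to 0.05, and the interval for FL against siNT was -0.06 to 0.07. The rise from siTAF5 to FL missed the threshold with scaling by library totals only (0.06, edgeR adjusted p = 0.12) and without FL replicate 1 (0.08, edgeR adjusted p = 0.0807).

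The 2 claudins with more reads took another course: both were lower than in siNT in the FL and in the ΔE8 libraries. CLDN4 (chr7:73799542-73832690, plus strand), a claudin of tight epithelia, had 2.26, 1.70 and 2.07 CPM in siNT, 1.17, 1.16 and 1.05 in siTAF5. With full-length TAF5 the values were 1.11, 0.688 and 1.21, and with the shorter isoform 0.919, 0.909 and 0.973. All 9 libraries outside siNT were below the lowest siNT library. Counts were small, 29 to 127 per library. CLDN4 fell by 0.83 after depletion (SE 0.17, 1.78-fold, edgeR adjusted p = 0.000361), the largest called change among the 10 genes in that comparison. It was 1.98-fold lower in FL than in siNT (log2 fold change -0.99, edgeR adjusted p = 6.99e-05) and 2.15-fold lower in ΔE8 (log2 fold change -1.11, edgeR adjusted p = 1.35e-05). FL differed from siTAF5 by -0.16 (95% interval -0.55 to 0.24) and ΔE8 from FL by -0.12 (-0.53 to 0.29), intervals wide enough to hold a partial return or a further loss.

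CLDN7, which is bound by EPCAM at lateral membranes, was ordered from siNT through siTAF5 to the rescued groups. Its levels were 1.86, 1.92 and 1.86 CPM in siNT, 1.53, 1.64 and 1.37 in siTAF5. In FL it read 1.01, 1.28 and 0.928 and in ΔE8 1.03, 1.09 and 1.07. These rest on 40 to 116 counts per library. All siTAF5 libraries lay below siNT, and all 6 rescued libraries lay below siTAF5. The first step, siTAF5 against siNT, was -0.31 (SE 0.14, edgeR adjusted p = 0.0659) and passed the threshold only with limma voom (adjusted p = 0.0496) and without FL replicate 2 (edgeR adjusted p = 0.0437). The second passed in both isoforms, -0.50 for FL against siTAF5 (SE 0.15, 1.41-fold, edgeR adjusted p = 0.00979) and -0.51 for ΔE8 against siTAF5 (SE 0.15, 1.42-fold, edgeR adjusted p = 0.00995). It missed the threshold without FL replicate 3 (-0.41, edgeR adjusted p = 0.0501) and without siTAF5 replicate 2 (-0.43, edgeR adjusted p = 0.0552), respectively. Against siNT, CLDN7 was 1.76-fold lower in FL (edgeR adjusted p = 8.83e-05) and 1.77-fold lower in ΔE8 (edgeR adjusted p = 5e-05). ΔE8 and FL differed by -0.01 with a 95% interval of -0.34 to 0.33.

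CLDN7 is shown with its promoter because it held the most copies of the E-box CACCTG among the 6 genes searched in the RefSeq promoter table (GRCh38.p14). ZEB and SNAIL repressors are known to bind these letters. KRT18, KRT19, EPCAM and ESRP1 were not searched. Windows ran from 250 bases before to 50 bases after a transcription start, and both strands were searched, so that CAGGTG counted as a match. At least 1 match was present in 7231 of 35116 windows in the table (20.6%) and in 4 of the 13 windows of these genes (30.8%). The CLDN7 window that starts transcription at chr17:7262478 held 5, and 5 or more were found in 33 windows of the table (0.094%), a limit chosen after the values were seen. The 4 matches before that start fall in these 3 stretches of the minus strand, given 5′ to 3′ with the E-box in capitals, at chr17:7262635-7262664, chr17:7262596-7262625 and chr17:7262479-7262504. All 3 lie in bases that are annotated as untranslated sequence of other transcripts.
CLDN7 far: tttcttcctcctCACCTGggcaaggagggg
CLDN7 middle: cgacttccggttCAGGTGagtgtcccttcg
CLDN7 at the start: tatactCAGGTGcgcccCACCTGtcc
The other CLDN7 start in the table, at chr17:7263213, had no match in its window. Its 250 bases upstream, chr17:7263214-7263463 on the minus strand, are shown for contrast.
CLDN7 other start: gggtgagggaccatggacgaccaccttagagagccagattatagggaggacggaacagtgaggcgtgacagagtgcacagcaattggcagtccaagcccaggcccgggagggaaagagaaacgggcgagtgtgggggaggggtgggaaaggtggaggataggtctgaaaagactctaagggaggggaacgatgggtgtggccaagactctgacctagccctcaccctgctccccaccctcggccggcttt
ZEB1 carried E-boxes before its starts at chr10:31318417 and chr10:31319216. Its windows at the starts chr10:31318818, chr10:31319768, chr10:31320554, chr10:31321201 and chr10:31321660 had no match. One lies in the stretch 40 to 69 bases before the start at chr10:31318417, chr10:31318348-31318377 on the plus strand.
ZEB1: ccgaggtgacagCAGGTGagggccgggtgc
The windows of CLDN4, KRT8 and ZEB2 had no match, and the CLDN3 window had 1 after its start. For KRT8 the search covered only the start at chr12:52926469, which lies inside the span given above. All matches are of letters only. The libraries do not tell which start was used. CLDN7 (chr17:7259903-7263983, minus strand) also overlaps ELP5 on the other strand by 38 bases. A second gene, ENSG00000262302, shares 2187 bases with it on the same strand, and strand cannot separate their reads; it held 25 counts over the 12 libraries.

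CLDN3 and ESRP1 had the lowest CPM of the 10 in every group mean. CLDN3 (chr7:73768997-73770270, minus strand) had 7 to 29 counts per library and 0.149 to 0.510 CPM, and the siTAF5 libraries spanned that whole range. It was called in no comparison by edgeR. Its 95% intervals ran from -0.89 to 0.55 for siTAF5 against siNT, from -0.71 to 0.73 for FL against siNT and from -1.17 to 0.32 for ΔE8 against siNT. The first and the last of these still hold the values of CLDN4 in the same comparisons (-0.83 and -1.11), and the FL interval does not (-0.99).

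ESRP1, a splicing regulator of epithelial cells encoded on chromosome 8, had 0.791, 0.909 and 0.766 CPM in siNT, 0.468, 0.739 and 0.368 in siTAF5. The FL libraries had 0.703, 0.593 and 0.789 and the ΔE8 libraries 0.558, 0.445 and 0.807. The siTAF5 libraries were all below siNT, by a small margin for siTAF5 replicate 2, and the rescued groups overlapped both. ESRP1 fell by 0.64 after depletion (SE 0.26, 1.56-fold, edgeR adjusted p = 0.0443). That call held in 11 of the 20 alternatives that tested the gene. It was lost with DESeq2 (-0.65, adjusted p = 0.0931) and in the fits without siTAF5 replicate 3 (-0.44, edgeR adjusted p = 0.204), without siTAF5 replicate 1 (-0.58, edgeR adjusted p = 0.111) and without any 1 of the siNT libraries or FL replicate 1 (edgeR adjusted p from 0.0532 to 0.132). Without siTAF5 replicate 2 it reached -0.998 (edgeR adjusted p = 0.00644). FL stood 0.40 above siTAF5 (95% interval -0.16 to 0.96, edgeR adjusted p = 0.237), and ΔE8 0.24 below FL (log2 fold change -0.24, 95% interval -0.79 to 0.32). The first of these passed the test without siTAF5 replicate 2 (0.74, edgeR adjusted p = 0.0439). ΔE8 stood at -0.48 against siNT (SE 0.25, edgeR adjusted p = 0.109) and passed without ΔE8 replicate 3 (-0.71, edgeR adjusted p = 0.0311).

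Of the 2 repressors, ZEB2 rose and ZEB1 was called in no comparison. ZEB2 (chr2:144364364-144521057, minus strand) read 36.7, 38.8 and 37.0 CPM in siNT, 40.1, 39.9 and 39.4 in siTAF5. With full-length TAF5 the values were 44.9, 43.9 and 44.7, and with the shorter isoform 45.8, 44.5 and 43.6. The order was siNT, siTAF5 and then both rescued groups, which overlapped each other and no other group. ZEB2 was 0.25 higher than siNT in FL (SE 0.033, 1.19-fold, edgeR adjusted p = 2.76e-06) and 0.25 higher in ΔE8 (SE 0.033, 1.19-fold, edgeR adjusted p = 1.2e-06). Over siTAF5 the rise was 0.16 in FL (edgeR adjusted p = 0.000405) and 0.17 in ΔE8 (edgeR adjusted p = 0.000392), and the isoforms differed by 0.01 with a 95% interval of -0.06 to 0.07. The smaller step from siNT to siTAF5, 0.08 (SE 0.033, edgeR adjusted p = 0.0402), was called in 9 of 21 alternatives and not by DESeq2 (adjusted p = 0.102), with upper-quartile scaling (edgeR adjusted p = 0.0858) or without a filter on low counts (0.167). It was also lost without any 1 of the siTAF5 or ΔE8 libraries, siNT replicate 1 or 3, or FL replicate 2 (edgeR adjusted p from 0.0789 to 0.185).

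ZEB1 (chr10:31318495-31529814, plus strand) lay between 63.1 and 72.8 CPM in all 12 libraries. It read 69.2, 68.1 and 68.1 CPM in siNT, 63.1, 67.9 and 65.0 in siTAF5. In FL it read 68.9, 67.8 and 70.3 and in ΔE8 72.8, 68.3 and 66.5. The siTAF5 group had the lowest mean, with all 3 libraries below siNT, and it overlapped both rescued groups. The difference from siNT was -0.07 (SE 0.034, edgeR adjusted p = 0.117), and those of FL and ΔE8 from siTAF5 were 0.08 (edgeR adjusted p = 0.0709) and 0.08 (edgeR adjusted p = 0.056). These 3 small differences were called in 4, 2 and 7 of 21 alternatives, in each case without siTAF5 replicate 2 (-0.11, 0.11 and 0.12, edgeR adjusted p = 0.0171, 0.0203 and 0.0125). One or more of them also passed without a ΔE8 library or FL replicate 2 (edgeR adjusted p from 0.0143 to 0.0429). With all 12 libraries, siTAF5 against siNT passed with upper-quartile scaling (edgeR adjusted p = 0.0387). ΔE8 against siTAF5 passed with relative log expression factors (0.0423) and with a minimum count of 50 (0.0304). It also passed in the fit of only the 6 libraries compared (0.0447). The ratio of ZEB2 to ZEB1 within a library averaged 0.549 ± 0.02 in siNT (SD, n = 3), 0.61 ± 0.025 in siTAF5, 0.645 ± 0.008 in FL and 0.645 ± 0.014 in ΔE8. Antisense genes overlap both repressors, ZEB1-AS1 by 1953 bases and ZEB2-AS1 by 3080, with 8301 and 91 counts over the 12 libraries, and reads of gene and antisense gene cannot be told apart without that setting.

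**Figure D2:**
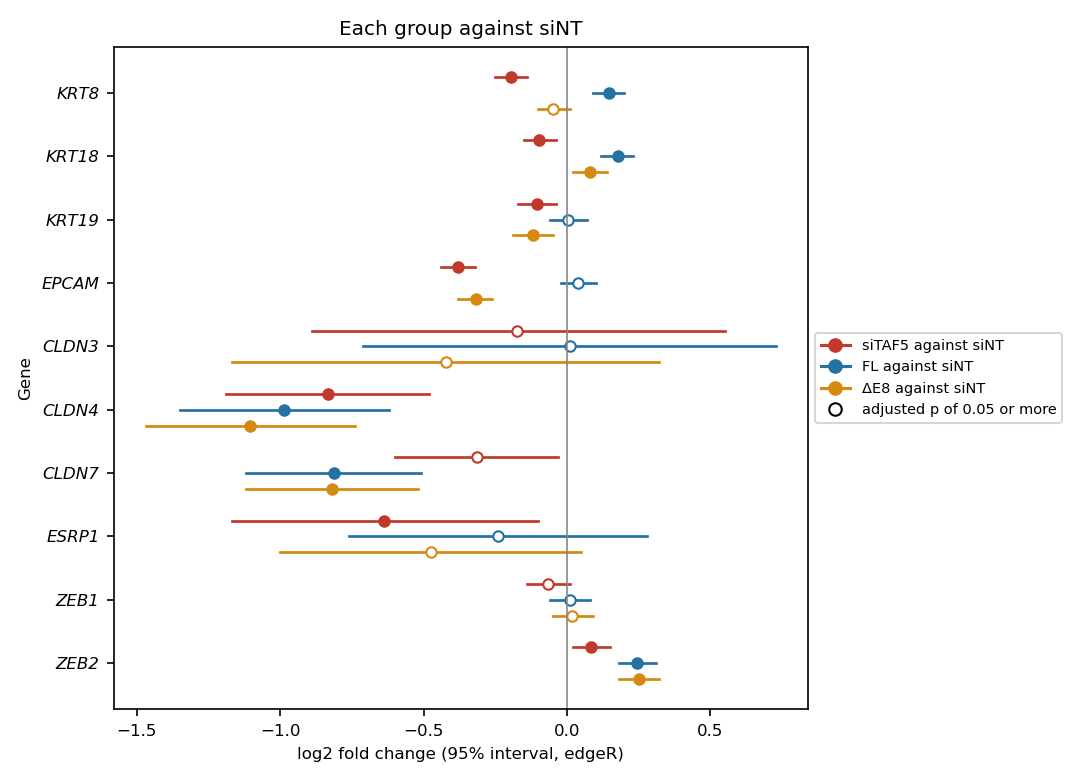
log2 fold change of each gene (horizontal axis) in siTAF5, FL and ΔE8 against siNT, with 95% intervals from edgeR; open circles have an adjusted p of 0.05 or more. CLDN4 lies left of 0 in all 3 groups (-0.83, -0.99 and -1.11), while EPCAM lies left of 0 in siTAF5 (-0.38) and ΔE8 (-0.32) and near it in FL (0.04).

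As a group, the 10 genes have to be read against a background in which many genes passed the test. After TAF5 depletion 6 of 10 were lower and 1 higher (edgeR), where 49.7% of all genes tested were called, 24.7% higher and 25.0% lower. The median of the 10 was -0.18 on the log2 scale beside 0.00022 for all genes, and the median size of change over all genes was 0.194. With scaling by library totals only, 3 were lower and 1 higher, since KRT18 (edgeR adjusted p = 0.0524), KRT19 (0.0589) and ESRP1 (0.0567) missed the threshold. By DESeq2 5 were lower and 0 higher. By limma voom, and at an unadjusted edgeR p under 0.05, 7 were lower and 1 higher. The libraries of siTAF5 and siNT did not overlap for 9 of the 10, and for 57.3% of all genes.

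In FL against siTAF5, KRT8, KRT18, KRT19, EPCAM and ZEB2 were higher and CLDN7 was lower, with a background of 48.8% of genes called (24.4% in each direction), a median of 0.17 for the 10 and of -0.0052 for all genes. In ΔE8 against siTAF5, KRT8, KRT18 and ZEB2 were higher and CLDN7 was lower, with a background of 40.6% (20.0% higher and 20.6% lower), a median of 0.074 for the 10 and of -0.011 for all genes. Libraries did not overlap for 6 of the 10 genes in either comparison, and for 56.3% and 49.9% of all genes. Both comparisons use the same siTAF5 libraries. The test of the isoforms themselves, ΔE8 against FL, called KRT8, KRT18, KRT19 and EPCAM lower and none of the 10 higher. There 37.0% of all genes were called, 17.3% higher and 19.7% lower, and the median was -0.12 for the 10 and -0.0089 for all genes. At an unadjusted p under 0.05 the same count, 4 lower and 0 higher, was found, and DESeq2 and limma voom each also gave 4 and 0. Libraries of FL and ΔE8 did not overlap for 5 of the 10, and for 45.7% of all genes. CLDN4, CLDN7, ZEB1 and ZEB2 differed between these groups by -0.12 to 0.01.

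**Figure D3:**
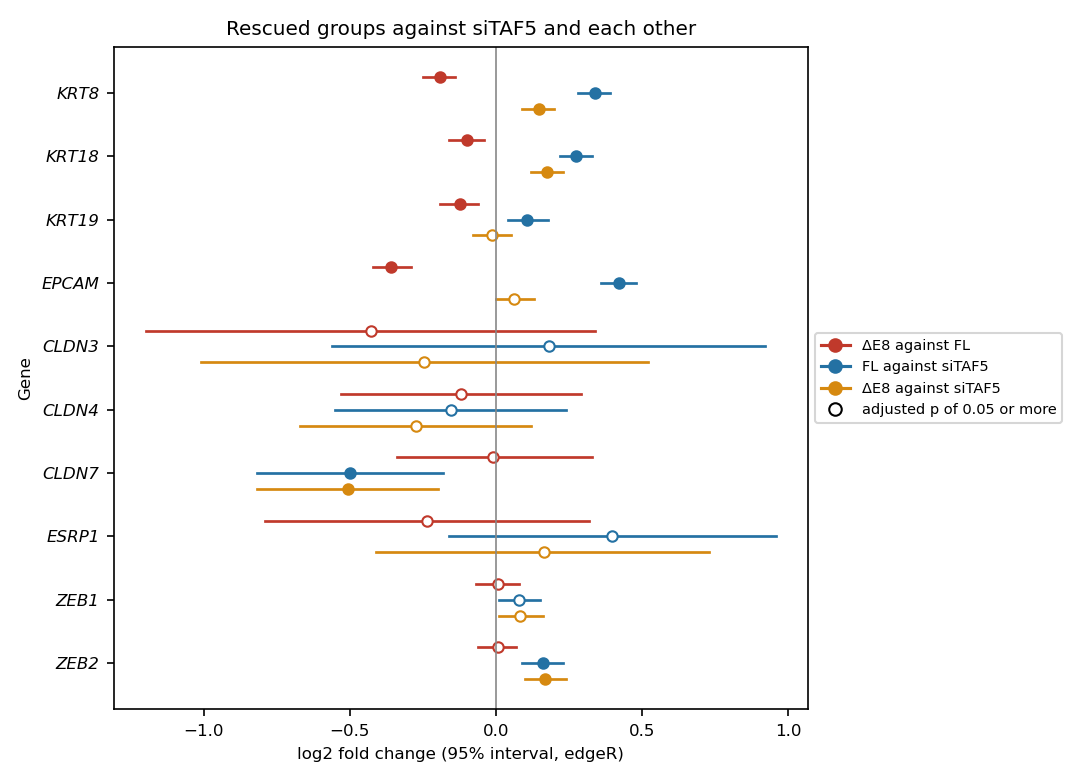
log2 fold change of each gene (horizontal axis) in FL against siTAF5, ΔE8 against siTAF5 and ΔE8 against FL, with 95% intervals from edgeR; open circles have an adjusted p of 0.05 or more. EPCAM is 0.42 above siTAF5 in FL and 0.06 above it in ΔE8, while CLDN7 is below siTAF5 by the same amount in both (-0.50 and -0.51).

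Both rescued groups held genes that differed from siNT. FL held 3 of the 10 genes above siNT (KRT8, KRT18 and ZEB2) and 2 below (CLDN4 and CLDN7), with a background of 54.6% of genes called (27.8% higher and 26.8% lower). ΔE8 held 2 above (KRT18 and ZEB2) and 4 below (KRT19, EPCAM, CLDN4 and CLDN7), with a background of 62.2% (30.8% higher and 31.4% lower). Libraries did not overlap with siNT for 5 of the 10 in FL and 7 in ΔE8, against 59.7% and 65.7% of all genes. The medians over the 10 were 0.01 and -0.22, beside 0.0062 and -0.00091 over all genes.

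Other genes of the same systems, from lists written with earlier results of these data known, put the 10 in context. None of 5 tested keratins of other types was called after depletion by edgeR (0 also at an unadjusted p under 0.05, by DESeq2 and by limma voom), where 49.7% of all genes were called. The SEs of the 5 ran from 0.056 to 0.52, so for the least expressed of them a missing call says little. Without siNT replicate 1, 2 of the 5 were called lower. In ΔE8 against FL 2 were lower, KRT10 (20.2 ± 1.09 against 22.4 ± 0.44 CPM, SD, n = 3) and KRT222 (0.709 ± 0.0499 against 1.40 ± 0.183). Over all genes 37.0% were called in that comparison, 19.7% lower. The KRT10 difference (edgeR adjusted p = 0.031) was called in 14 of 21 alternatives. Among 10 tested claudins and claudin-like genes 3 were lower after depletion and 0 higher, a split that unadjusted edgeR, DESeq2 and limma voom also gave. Over all genes 25.0% were lower, so that share is near the background. CLDN1, a sealing claudin, fell from 17.3 ± 0.483 CPM in siNT to 13.7 ± 0.607 in siTAF5 (log2 fold change -0.34, edgeR adjusted p = 0.000112). It measured 15.02 ± 0.466 in FL and 11.5 ± 1.29 in ΔE8, lower in ΔE8 than in FL (-0.37, edgeR adjusted p = 0.00014).

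Of 24 tight junction and polarity genes tested, 7 were higher and 4 lower in siTAF5 than in siNT, with a median of -0.037. The share called was near that of all genes, 49.7% (24.7% higher and 25.0% lower). LSR, a receptor of tricellular junctions, measured 77.5 ± 1.28 CPM in siNT and 101.5 ± 2.82 in siTAF5 (log2 fold change 0.39, edgeR adjusted p = 6.69e-10), and CGN, the junction plaque protein cingulin, 38.2 ± 0.973 and 48.5 ± 0.15 (0.35, edgeR adjusted p = 1.28e-07). JAM3, a junctional adhesion molecule, was 0.36 higher (edgeR adjusted p = 1.77e-09). All 3 were also higher in ΔE8 than in FL, LSR by 0.19, CGN by 0.46 and JAM3 by 0.29 (edgeR adjusted p = 1.28e-05, 1.23e-08 and 1.3e-07). In that comparison 7 of the 24 were higher and 5 lower, where 37.0% of all genes were called. In FL the 3 genes did not share a direction against siTAF5. LSR was 0.14 higher in FL than in siTAF5 (edgeR adjusted p = 0.000191) and 0.53 higher than in siNT (1.06e-11). CGN and JAM3 were lower in FL than in siTAF5 (-0.59 and -0.36, edgeR adjusted p = 1.09e-10 and 2.05e-09). So EPCAM and CLDN4 were lower in siTAF5 while these junction genes were higher in the same libraries.

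Desmosome and keratin-linker genes changed by small amounts after depletion. Of 8 tested, 4 were lower and 0 higher (5 and 0 at an unadjusted p, 4 and 0 by DESeq2 and by limma voom). Their median was -0.085. Over all genes 49.7% were called, 25.0% lower and 24.7% higher. The count called among the 8 was 2 without siNT replicate 2 and with scaling by library totals only. It was 6 with upper-quartile scaling, with the replicate block, and without FL replicate 2, ΔE8 replicate 1 or ΔE8 replicate 3. DSP, which anchors keratin filaments to desmosomes, stood at 313 ± 4.89 CPM in siNT and 282 ± 1.72 in siTAF5 (-0.15, edgeR adjusted p = 7.73e-05), and PLEC, a cytoskeletal linker, at 72.1 ± 3.5 and 61.7 ± 0.784 (-0.22, edgeR adjusted p = 4.13e-05).

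Other epithelial genes and regulators were lower or uncalled. Of 17 tested, 11 were lower and 0 higher in siTAF5 (11 and 0 at an unadjusted p, 10 and 0 by DESeq2 and by limma voom), with a median of -0.28, where 25.0% of all genes were lower and 24.7% higher. In ΔE8 against FL 7 were lower and 0 higher (8 and 0 at an unadjusted p, 7 and 0 by DESeq2 and by limma voom), with a median of -0.19, where 19.7% of all genes were lower and 17.3% higher. ESRP2, the close relative of ESRP1, fell from 72.7 ± 2.82 CPM in siNT to 55.5 ± 1.38 in siTAF5 (-0.39, edgeR adjusted p = 7.6e-09). TFAP2A, a transcription factor of ectoderm and epithelia, fell from 84.7 ± 1.17 to 60.04 ± 0.577 (-0.50, edgeR adjusted p = 7.81e-11). Both were lower in ΔE8 than in FL, ESRP2 by -0.29 (edgeR adjusted p = 2.18e-06) and TFAP2A by -0.18 (edgeR adjusted p = 0.000128). Unlike EPCAM, neither was called in FL against siTAF5 (edgeR adjusted p = 0.343 for ESRP2 and 0.0705 for TFAP2A). In FL each stood at -0.43 against siNT (edgeR adjusted p = 1.93e-09 and 6.77e-10). From siTAF5 to FL, 2 of the 17 were called higher and 3 lower by edgeR, where 24.4% of all genes were called in each direction. Of the 17, 10 were lower and 0 higher in FL than in siNT, with a median of -0.31, where 26.8% of all genes were lower and 27.8% higher. SPINT2, an inhibitor of membrane serine proteases, was lower in siTAF5 by a log2 fold change of -0.23 (edgeR adjusted p = 3.18e-07).

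Repressors and mesenchymal genes had no common direction. Of 16 tested, 4 were higher and 5 lower in siTAF5, with a median of -0.078, a share called near the 49.7% of all genes. VIM, the intermediate filament of mesenchymal cells, rose from 1093 ± 25.2 CPM in siNT to 1372 ± 29.8 in siTAF5 (0.33, edgeR adjusted p = 3.89e-10), with 1188 ± 11.7 in FL and 1532 ± 28.2 in ΔE8. The matrix gene SPARC went the other way, from 6.65 ± 0.217 to 4.20 ± 0.124 CPM (-0.66, edgeR adjusted p = 5.27e-07), and was lower in ΔE8 than in FL (-0.88, edgeR adjusted p = 3.93e-07). FN1, fibronectin, was 1.22-fold higher in ΔE8 than in FL (edgeR adjusted p = 1.28e-06). The fibroblast marker sum given above was lower in every library outside siNT, as CLDN4 and CLDN7 were. So was the sum of 5 neuronal genes, 398 to 412 CPM in siNT, 351 to 375 in siTAF5, 323 to 344 in FL and 305 to 330 in ΔE8. That sum was mostly NEFL (364, 321, 269 and 261 CPM in the means of the groups in that order), while INA, the next in CPM, ran the other way (37.4, 43.1, 60.8 and 55.8). Their part in these results was not tested.

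**Figure D4:**
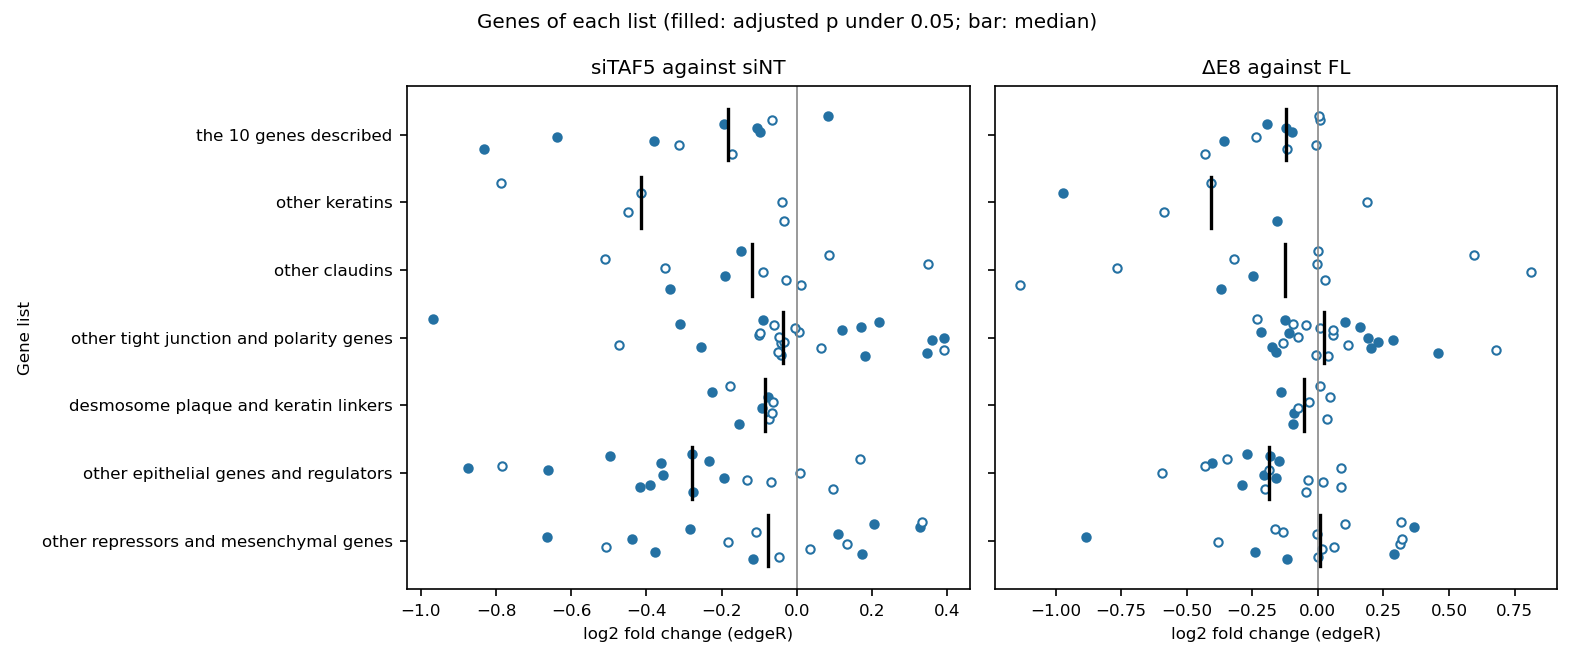
log2 fold change of each tested gene (points) in 7 lists (rows) for siTAF5 against siNT and ΔE8 against FL; filled points have an edgeR adjusted p under 0.05 and the bar is the median of the list. The bar of the other epithelial genes lies at -0.28 and -0.19, and that of the tight junction and polarity genes at -0.037 and 0.025.

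For the members with the widest range of group means, the genes most alike in pattern were sought among 11982 well-expressed genes. The measure was the distance between centred log2 levels over the 4 groups. Nearest to CLDN4 were FGFR4 (distance 0.12) and COL1A1 (0.13). The log2 levels of FGFR4 in siTAF5, FL and ΔE8 were -0.90, -0.95 and -1.14 relative to siNT. Nearest to CLDN7 were RRAS (0.04) and PLXNC1 (0.062), and nearest to ESRP1 were NFKB2 (0.039) and SLC4A8 (0.064). With 4 group means from 12 libraries, many genes can lie this close, and no test was made. ESRP1 had 21 to 55 counts per library, CLDN7 40 to 116 and CLDN4 29 to 127, so their own profiles are uncertain.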

How the data were processed

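RNA was made into stranded polyadenylated libraries, per the labels' protocols. The deposited table holds expected counts, estimated reads per gene: 46.5% of the deposited entries are not whole, and library totals differ (41.8 to 62.5 M). STAR 2.7.0f, cutadapt 1.18, DESeq2, Partek 10.0.23.0531 and the build hg38 stand in the submitters' processing notes. The quantifier and its use of strand are not given in the sources used. Ends of genes are the table's stop less 1 base. The design assumed counts. The values were rounded, and no library total moved by more than 91.27.

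In R 4.3.3, genes were kept by filterByExpr (minimum count 10). A single edgeR 4.0.16 quasi-likelihood model with a mean per group was fitted to the 12 libraries after scaling by trimmed mean of M values, and was tested on simulated data. The 6 comparisons were two-sided with Benjamini-Hochberg adjustment over 19424 genes at 0.05. The common biological coefficient of variation was 2.82%. Alternatives were other scalings and filters, DESeq2 1.42.0, limma 3.58.1 voom, the 6 libraries compared alone, the replicate number as a block and leaving out each library. The members, lists and tests were chosen with earlier results of these data known. All 10 members were named in every comparison. Up to 3 genes of each list, those with the smallest adjusted p among the called ones in siTAF5 against siNT or ΔE8 against FL, could be named. For the 3 members with the widest range, the 2 genes nearest in pattern were named, if their log2 CPM averaged 2 or more. Lengths came from GENCODE release 29, which held 95.2% of the gene identifiers. Sequences came from the RefSeq promoter table (GRCh38.p14).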

Additional observations from a re-analysis of the deposited data

How the results depend on the processing

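The 10 genes gave 32 called changes over the 6 comparisons, and 23 of these were called in every alternative run, up to 21 each. The other 9 were lost at least once, and none changed direction. The number of the 10 called in siTAF5 against siNT was 4 with scaling by library totals only, against 7. The other counts called, over all genes and over the 10, stayed within 1.5 times. Scaling by library totals also tilted FL against siTAF5 over all genes from 4745 higher and 4732 lower to 3748 and 5788, siTAF5 against siNT from 4802 and 4848 to 5662 and 4140, and ΔE8 against FL from 3359 and 3819 to 4072 and 3184.

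Signs changed for 22 values near 0, in fits other than those leaving out a library, and none was called in either fit. In FL against siNT, with upper-quartile scaling, KRT19 was -0.030, CLDN3 -0.024 and ZEB1 -0.021; with library totals only, KRT19 was -0.012, CLDN3 -0.006 and ZEB1 -0.003. Without a filter they were -0.022, -0.016 and -0.013. With a minimum count of 50, KRT19 was -0.010 and ZEB1 -0.001, and CLDN3 and ESRP1 were not tested. From the 6 libraries alone KRT19 was -0.007 and CLDN3 -0.001, and KRT19 was 0.0 with relative log expression factors and with DESeq2. In ΔE8 against FL, upper-quartile scaling gave ZEB1 -0.003 and ZEB2 -0.004, and CLDN7 was 0.018 with library totals, 0.002 with a minimum count of 50 and 0.005 with limma voom. In ΔE8 against siNT, ZEB1 was -0.024 with upper-quartile scaling and -0.001 without a filter. The cause was not tested.

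Leaving out 1 library at a time gave ranges that crossed 0 for these uncalled values. In FL against siNT they were -0.029 to 0.021 for KRT19, -0.183 to 0.154 for CLDN3 and -0.002 to 0.019 for ZEB1. In ΔE8 against FL they were -0.094 to 0.131 for CLDN7, -0.301 to 0.009 for CLDN4, -0.024 to 0.037 for ZEB1 and -0.006 to 0.026 for ZEB2. In ΔE8 against siTAF5 they were -0.061 to 0.517 for ESRP1, -0.027 to 0.015 for KRT19 and -0.556 to 0.210 for CLDN3. In FL against siTAF5 they were -0.133 to 0.632 for CLDN3 and -0.284 to 0.035 for CLDN4. CLDN3 in siTAF5 against siNT ran from -0.637 to 0.129 and ZEB1 in ΔE8 against siNT from -0.025 to 0.036.

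Deviations of libraries with the same replicate number were only weakly correlated (18 correlations from -0.051 to 0.051). A library correlated best with its own number in 17 of 36 cases. Pairing by number was thus neither shown nor excluded. With the replicate number as a block, 6, 6, 4, 4, 5 and 6 of the 10 genes were called in siTAF5 against siNT, FL against siTAF5, ΔE8 against siTAF5, ΔE8 against FL, FL against siNT and ΔE8 against siNT. Among the 10 genes the block removed 1 call, ESRP1 in siTAF5 against siNT (edgeR adjusted p = 0.0548). Over all genes it raised the calls to 9787, 9602, 8092, 7409, 10687 and 12215. Without it they were 9650, 9477, 7884, 7178, 10608 and 12091. Depth limits CLDN3, CLDN4, CLDN7 and ESRP1, which had 7 to 127 counts per library.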
